A study of Saccharomyces cerevisiae with 3 samples.

Results

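The nuclear RNA polymerases I, II and III and the mitochondrial RNA polymerase of budding yeast (Saccharomyces cerevisiae) are described here through the messenger RNAs of their subunits. The members were taken by gene name from the deposited tables, and all 32 names were found, with 1 row each, among 6265 genes. Of these, 7 genes belong to polymerase I, 7 to polymerase II and 10 to polymerase III, while 2 are shared by I and III, 5 by all 3 nuclear enzymes, and 1 encodes the mitochondrial enzyme. Levels were measured on 3 one-colour NimbleGen arrays, each gene with 15 pairs of a perfect-match probe and a mismatch probe. High pressure was 25 MPa at 24 °C for 5 h, low temperature was 15 °C at 0.1 MPa for 5 h, and the control was growing at 0.1 MPa, the pressure of the atmosphere, and 24 °C. The control cells were harvested from growth, with no 5 h incubation stated for them. Every group was the haploid strain BY4742, of the alpha mating type with deletions in HIS3, LEU2, LYS2 and URA3. RNA of 3 cultures was pooled for each condition, so there is 1 array for each, no replicate and no error between cultures. Differences below describe these arrays, and none could be tested.

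The nuclear enzymes divide the genome between them. Polymerase I makes the precursor of the large ribosomal RNAs, polymerase II makes messenger RNA, and polymerase III makes transfer RNA and the small 5S ribosomal RNA. They are built on a common plan: a pair of large subunits forms the active site, an assembly pair scaffolds them, a set of small subunits is common to all, and further subunits are particular to an enzyme. In yeast the first and last of these enzymes carry much of the transcription of fast-growing cells, and their output is known to be cut back when growth slows.

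Levels are the authors' log2 values from robust multiarray averaging (RMA). The labels do not say if the 3 arrays were brought to a joint scale, and their medians differ, so for any 1 gene a difference in scale between arrays and a difference in level cannot be told apart. The median over all rows was 6.77 on the high-pressure array, 6.98 on the low-temperature array and 6.43 on the control array, and 62.4%, 60.5% and 54.2% of rows were above mismatch. A gene counts as above mismatch on an array where its perfect-match minus mismatch difference passed a one-sided 5% limit over its 15 pairs. This held for 27 of the 32 subunits under pressure, 25 in the cold and 25 in the control, for 21 on all arrays, and for RPA43, RPC53, RPC37 and RPO41 on none. Alpha-specific mating genes were above mismatch on all arrays for 4 of 4, and of 6 genes of the other mating type STE2 was so on all arrays, AGA2 on 2 and the other 4 on none. The free-text sample descriptions name a strain by RPB1, another name of RPO21, and a growth temperature at odds with the titles, which were followed here. RPO21 gave a signal above mismatch on every array, which does not settle the strain used.

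**Figure D1:**
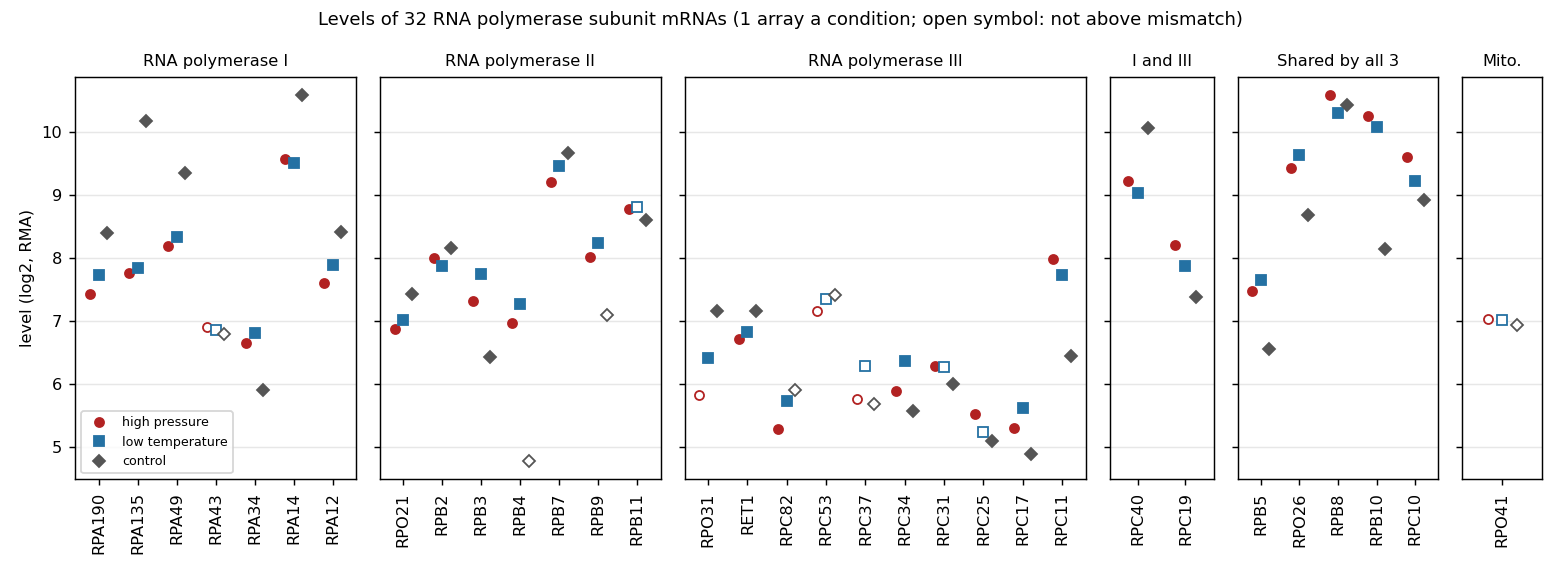
Log2 RMA level (vertical axis) of each of the 32 subunit genes (horizontal axis) on the high-pressure (circle), low-temperature (square) and control (diamond) arrays, by enzyme; open symbols are not above mismatch, and each symbol is 1 array. For RPA135 the high-pressure and low-temperature symbols lie close together at 7.76 and 7.84, under the control at 10.17, and for RPB10 they lie at 10.25 and 10.08, over the control at 8.14.

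The study design names 1.5-fold as its size of interest. A gene was counted where its ratio went beyond that and its higher level reached the 25th percentile of that array (5.57 under pressure, 5.77 in the cold, 5.36 in the control). Set against the control, 30 of the 32 subunits passed this filter in each comparison, RPC25 and RPC17 being too dim. RPB4 passed through its high-pressure and low-temperature levels alone, and RPC82 through its control level alone. Of the subunits that passed under pressure, 8 were lower, 26.7% of those that passed, where 12.2% of all genes that passed were lower, and 10 were higher, 33.3%, where 28.1% of all genes were. In the cold 6 were lower, 20.0%, beside 9.6% of all genes, and 10 were higher, 33.3%, beside 34.7%. The shares of higher subunits were thus close to those of all genes. The 2 comparisons share the control array, so a low or high control level enters both. In them RPA190, RPA135, RPA49, RPA14, RPO31 and RPC40 were lower both times, RPA34, RPB3, RPB4, RPB9, RPC11, RPB5, RPO26 and RPB10 higher both times, and no subunit was past the line in opposite directions.

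The split between higher and lower depends on how the arrays are scaled. Over all genes the median log2 ratio was 0.13 under pressure and 0.26 in the cold, but -0.21 and -0.28 with each array centred on its median. It was 0.15 and 0.41 with perfect-match intensities. Centred, 4 subunits were higher and 11 lower under pressure, beside 17.1% and 24.9% of all genes, and 5 were higher and 14 lower in the cold, beside 14.6% and 30.3%. With perfect-match intensities 10 were higher and 4 lower under pressure, beside 23.8% and 5.11%, and 12 were higher and 2 lower in the cold, beside 45.9% and 2.28%. Each ratio below is therefore to be read against the median gene.

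The classes of subunit differed in where they lay around that median. Under pressure the median log2 ratio was -0.95 for the polymerase I genes, 0.18 for those of polymerase II, 0.18 for those of polymerase III and 0.75 for the genes common to all 3. In the cold the same medians were -0.65, 0.22, 0.20 and 0.95. Among the 5 nuclear classes, polymerase I had the lowest median and the common class the highest in both comparisons, also with perfect-match intensities, with centred arrays, with quantile normalization of the gene values and with the trend on gene length removed. The sign of the polymerase II and III medians was not stable: centred, they were -0.16 and -0.16 under pressure and -0.33 and -0.35 in the cold.

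**Figure D2:**
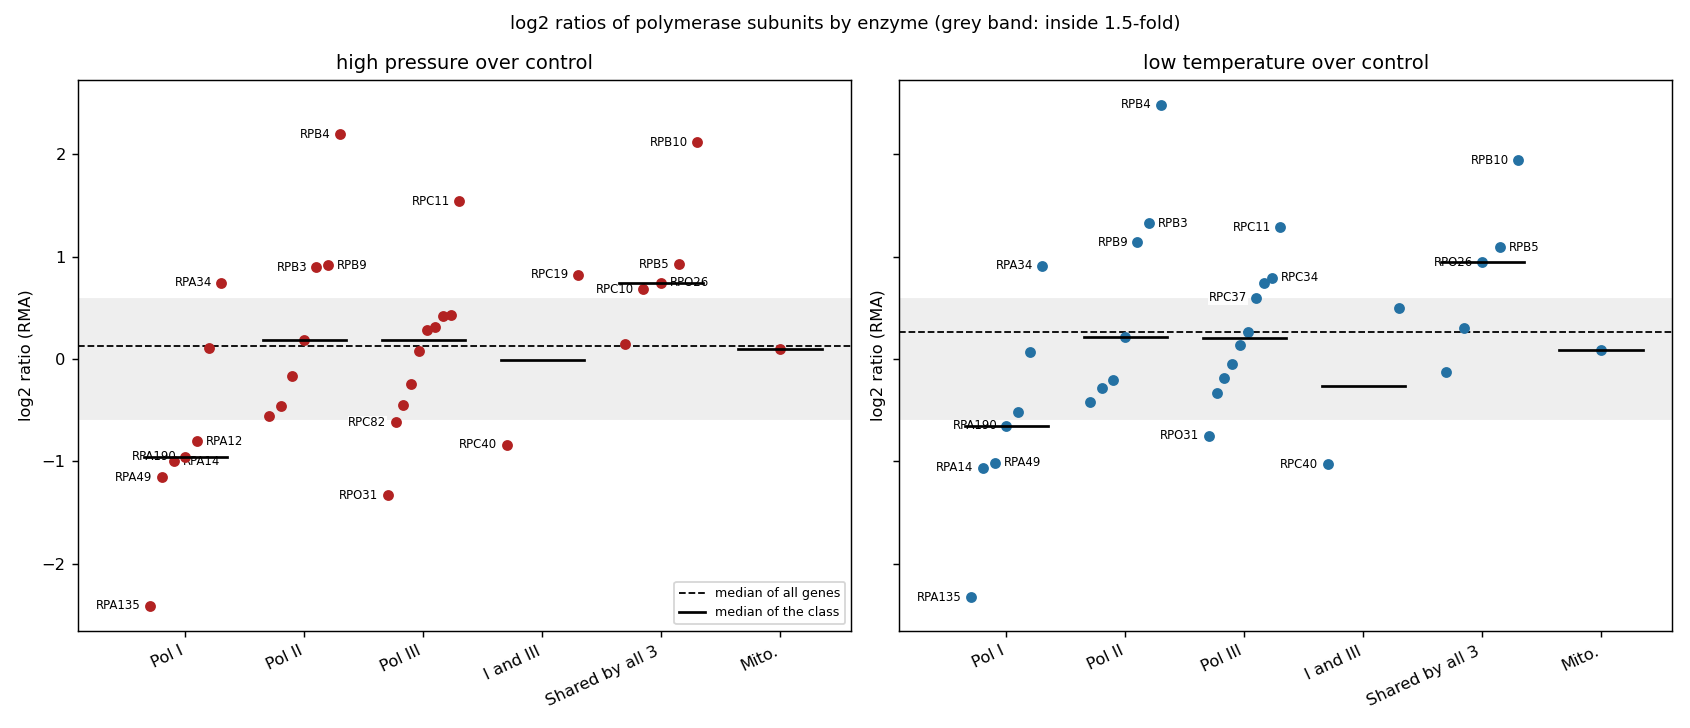
Log2 ratio over the control (vertical axis) of each subunit, by class (horizontal axis), for high pressure (left) and low temperature (right); solid bars are class medians, the dashed line is the median of all genes, the grey band is inside 1.5-fold, and names mark genes counted past it. Polymerase I genes lie mostly under the band with medians of -0.95 and -0.65, and genes common to all enzymes lie mostly above the dashed line with medians of 0.75 and 0.95.

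Polymerase I genes were the lowest class, with 5 of 7 lower and 1 higher under pressure, beside 12.2% and 28.1% of all genes, and 4 lower and 1 higher in the cold, beside 9.6% and 34.7%. With perfect-match intensities 3 were lower and 1, RPA12, higher under pressure, with a class median of -0.45, beside 0.15 for all genes. In the cold those intensities left 1 lower, RPA135, and 1 higher, RPA43. The class median there was -0.063, beside 0.41 for all genes. RPA135, the second largest subunit and part of the active site, had a log2 level of 7.76 under pressure, 7.84 in the cold and 10.17 in the control. Its log2 ratio was -2.41 under pressure (5.32-fold lower) and -2.33 in the cold (5.03-fold lower), at the 0.192 and 0.112 percentiles of all genes. Its mean perfect-match intensity was 392 under pressure, 482 in the cold and 1323 in the control, against mismatch means of 153, 147 and 179, and with these intensities the ratios were -1.75 and -1.46. It was past 1.5-fold in both comparisons under every scaling tried. RPA190, the largest subunit, which holds the catalytic centre, lay at 7.43 under pressure, 7.74 in the cold and 8.39 in the control. That is a ratio of -0.95 (1.94-fold lower) under pressure and of -0.65 (1.57-fold lower) in the cold, the second of which shrank to -0.26 with perfect-match intensities and to -0.30 with the length trend removed.

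RPA49 and RPA34 form a dimer akin to the initiation factor TFIIF, yet they lay on opposite sides. RPA49 had levels of 8.19 under pressure, 8.33 in the cold and 9.34 in the control, with ratios of -1.16 (2.23-fold lower) and -1.01 (2.02-fold lower). RPA34 had levels of 6.65, 6.81 and 5.90 on the same arrays, with ratios of 0.74 (1.67-fold higher) and 0.91 (1.88-fold higher). Both were above mismatch on all arrays. The ratios of RPA34 were inside 1.5-fold under all 4 other scalings, from 0.40 to 0.47 under pressure and from 0.36 to 0.56 in the cold, while those of RPA49 were inside it only with perfect-match intensities in the cold (-0.42).

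The stalk of polymerase I, which binds the growth-regulated initiation factor Rrn3, is made of RPA43 and RPA14. RPA14 lay at 9.57 under pressure, 9.51 in the cold and 10.57 in the control, lower by ratios of -1.0 and -1.06, but -0.45 and -0.063 with perfect-match intensities. RPA43 lay at 6.90, 6.86 and 6.79 and was above mismatch on no array, so no fold is given. Its 15 perfect-match probes averaged 777, 1127 and 575, but their standard deviation was 2.15, 2.72 and 2.07 times the mean, that is, the signal was very uneven over the probes. RPA43 and RPA190 are neighbours on chromosome XV, read from opposite strands (YOR340C and YOR341W).

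RPA12, a zinc-ribbon subunit that helps the enzyme cut back its own transcript, had levels of 7.60 under pressure, 7.89 in the cold and 8.41 in the control. The ratio under pressure was -0.80 (1.74-fold lower) and that in the cold -0.52, inside 1.5-fold. With perfect-match intensities the ratio under pressure turned to 0.64: the probes averaged 928 under pressure, 637 in the cold and 596 in the control, with a standard deviation of 1.88, 0.92 and 0.70 times the mean. The direction for RPA12 thus differed between the deposited values and the perfect-match means. Of the 5 polymerase I genes lower under pressure, RPA190, RPA135 and RPA49 stayed past 1.5-fold under every scaling.

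Polymerases I and III share an assembly pair, RPC40 and RPC19, which scaffold the large subunits. RPC40 lay at 9.21 under pressure, 9.02 in the cold and 10.05 in the control, lower by ratios of -0.84 (1.79-fold) and -1.03 (2.04-fold). Perfect-match intensities gave -0.34 and 0.0071, beside medians of 0.15 and 0.41 for all genes. The ratio in the cold was thus no longer below 0 there, but it was still under the median gene. RPC19, its partner, lay at 8.20, 7.87 and 7.37, with ratios of 0.82 (1.77-fold higher) and 0.49 (inside 1.5-fold). The partners were on opposite sides of the control in both comparisons by the deposited values, but with arrays centred RPC19 had -0.05 in the cold.

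Of the 5 subunits common to all nuclear enzymes, 4 were higher under pressure, 3 in the cold and 0 lower in either by the deposited values, beside 28.1% and 34.7% of all genes higher. Under pressure 2 of them, RPB5 and RPB10, were higher with arrays centred, with quantile normalization or with the length trend removed. The shares of all genes higher there were 17.1%, 20.3% and 26.5%. In the cold 1 was higher (RPB10) and 1 lower (RPB8) with arrays centred, beside 14.6% and 30.3% of all genes. With quantile normalization 3 were higher in the cold, beside 20.1%, and with the length trend removed 2 were, beside 34.5%. RPB10, a small zinc-binding subunit, had levels of 10.25 under pressure, 10.08 in the cold and 8.14 in the control. Its ratios were 2.12 (4.34-fold higher) and 1.94 (3.84-fold higher), and it was past 1.5-fold under every scaling, with the lowest values 1.59 and 1.39. Its perfect-match means of 1508, 1630 and 365 stood over mismatch means of 188, 187 and 150.

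RPB5, which lies in the jaw that grips the DNA, lay at 7.48 under pressure, 7.65 in the cold and 6.56 in the control, higher by 0.93 (1.90-fold) and 1.09 (2.13-fold). RPO26, also called Rpb6, lay at 9.42, 9.62 and 8.68, higher by 0.75 (1.68-fold) and 0.95 (1.93-fold), but inside 1.5-fold at 0.24 and 0.46 once the length trend was removed. RPC10, which despite its name is a subunit of all 3 enzymes, lay at 9.60, 9.21 and 8.92, higher by 0.68 (1.61-fold) under pressure and inside 1.5-fold at 0.30 in the cold. Its ratio under pressure was inside 1.5-fold with arrays centred (0.35), with quantile normalization (0.53) and with the length trend removed (0.17). RPB8 had nearly the same level throughout, 10.57, 10.29 and 10.42, with ratios of 0.15 and -0.13, the second -0.68 with arrays centred. The common subunits therefore did not all have like ratios.

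By the deposited values 3 of the 7 polymerase II genes (42.9%) were higher and 0 lower in both comparisons. The array-wide shares, higher then lower, were 28.1% and 12.2% for pressure and 34.7% and 9.6% for the cold. With arrays centred, 1 was higher (RPB4) and 2 lower under pressure, and 3 were higher and 3 lower in the cold. With perfect-match intensities 3 were higher under pressure and 5 in the cold, with 0 lower in either. RPB4 had the widest contrast. It forms, with RPB7, a stalk that can leave the enzyme, and in yeast it is not needed for growth at moderate temperature but is needed at extremes. It lay at 6.98 under pressure, 7.26 in the cold and 4.78 in the control, where it was not above mismatch: the perfect-match mean there was 127 and the mismatch mean 118. Its ratios were 2.20 (nominally 4.58-fold higher) and 2.48 (nominally 5.59-fold higher) by the deposited values, and 1.19 and 1.32 with perfect-match intensities. A fold is called nominal where the dimmer array failed the mismatch limit. It refers to the deposited values and is not a lower bound, and the other scalings all gave smaller ratios for RPB4. RPB7, its partner, lay at 9.20, 9.45 and 9.66, with ratios of -0.46 and -0.21, inside 1.5-fold, and with perfect-match intensities -0.21 and 0.65.

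RPB9, a zinc-ribbon subunit that acts in start-site choice and accuracy, lay at 8.01 under pressure, 8.24 in the cold and 7.10 in the control, where it too was not above mismatch. Its ratios were 0.92 (nominally 1.89-fold higher) and 1.14 (nominally 2.20-fold higher) by the deposited values. With arrays centred they were 0.579, inside 1.5-fold, and 0.592, just past it. RPB3, of the polymerase II assembly pair, lay at 7.32, 7.75 and 6.43, higher by 0.89 (1.86-fold) and 1.32 (2.50-fold). Under pressure its ratio was inside 1.5-fold with arrays centred (0.557) and with quantile normalization (0.562). Its partner RPB11 lay at 8.78, 8.81 and 8.59, with ratios of 0.18 and 0.22, and was not above mismatch in the cold. The large subunits were lower in sign but inside 1.5-fold: RPO21, whose tail carries the repeats that kinases mark during transcription, lay at 6.87, 7.01 and 7.43 (ratios -0.56 and -0.42). RPB2 lay at 8.0, 7.88 and 8.16 in that order (ratios -0.17 and -0.29, the second 0.11 with perfect-match intensities). With arrays centred, RPO21 and RPB7 were lower past 1.5-fold under pressure, and RPO21, RPB2 and RPB7 in the cold.

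Polymerase III genes were mixed, and 8 of the 10 passed the filter. Of these 1 was higher (12.5%) and 2 lower (25.0%) under pressure, beside 28.1% and 12.2% of all genes. In the cold 3 were higher (37.5%) and 1 lower (12.5%), beside 34.7% and 9.6%, so these shares were close to those of all genes. RPC11, a small zinc-ribbon subunit that cuts the transcript and aids termination, was the clearest: it lay at 7.99 under pressure, 7.74 in the cold and 6.45 in the control, above mismatch on all arrays. It was higher by 1.54 (2.91-fold) and 1.29 (2.44-fold), and past 1.5-fold under every scaling. RPO31, the largest subunit, lay at 5.83 under pressure, where it was not above mismatch, 6.41 in the cold and 7.16 in the control. It was lower by a ratio of -1.33 (nominally 2.52-fold) under pressure and of -0.75 (1.68-fold) in the cold. The second was inside 1.5-fold at -0.44 with the length trend removed. RET1, the second largest, lay at 6.71, 6.83 and 7.16, with ratios of -0.45 and -0.34.

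The other polymerase III genes were mostly dim. In the trimer that binds the initiation factor TFIIIB, RPC82 lay at 5.29 under pressure, 5.73 in the cold and 5.91 in the control. Its ratio of -0.62 under pressure was just past 1.5-fold, and its control level was not above mismatch. RPC34 of the same trimer lay at 5.90, 6.37 and 5.58, with a ratio of 0.31 under pressure and of 0.79 (1.73-fold higher) in the cold, but 0.26 with perfect-match intensities. RPC31, the last of the trimer, lay at 6.29, 6.26 and 6.0, and was not above mismatch in the cold. The stalk genes RPC25 (5.53, 5.25 and 5.11) and RPC17 (5.31, 5.63 and 4.89) were under the level filter in both comparisons, RPC17 with a ratio of 0.74 in the cold. RPC53 and RPC37, the TFIIF-like pair of this enzyme, were above mismatch on no array. RPC53 lay at 7.16, 7.36 and 7.41, and RPC37 at 5.77, 6.29 and 5.69, which counted it as higher in the cold by the deposited values, just past the line.

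RPO41, the single-subunit mitochondrial polymerase related to those of phages, lay at 7.03 under pressure, 7.02 in the cold and 6.93 in the control. It failed the mismatch limit on every array, so no fold is given.

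The subunits were also set side by side by their place in the enzyme. Each of the 3 largest subunits and each of the 3 second largest had a ratio below 0 in both comparisons, from -2.41 for RPA135 to -0.17 for RPB2 under pressure and from -2.33 for RPA135 to -0.29 for RPB2 in the cold. With perfect-match intensities 5 of these 6 kept that sign in the cold, RPB2 being the exception. RPO21, RPB2 and RET1 were inside 1.5-fold in both comparisons, and with the length trend removed their ratios in the cold were -0.066, -0.042 and -0.11. Of the zinc-ribbon subunits, RPB9 and RPC11 were by the deposited values higher in both comparisons, and RPA12 was lower under pressure. By the deposited values RPC19 and RPC40 had ratios of opposite sign in both comparisons, as did RPB4 and RPB7 of the polymerase II stalk. RPB3 was past 1.5-fold in both comparisons and its partner RPB11 in neither. With perfect-match intensities in the cold RPB3 and RPB11 were close, at 0.80 and 0.87, and RPB7 was at 0.65.

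Gene length moved with the ratios over the whole array. Among all genes the median log2 ratio under pressure was 0.40 among short genes (up to 909 bp), 0.15 among those of middle length and 0.017 among long ones (over 1629 bp), with about equal numbers in each bin, and in the cold it was 0.57, 0.27 and 0.11. The subunits in these bins, 18, 6 and 8 genes, had medians of 0.56, -0.066 and -0.59 under pressure and 0.55, 0.0068 and -0.38 in the cold. The common subunits are all short and the large subunits long, so part of the contrast between them runs with length. With the trend removed, the median of the common subunits was 0.24 under pressure and 0.46 in the cold, against 0.16 and 0.28 for all genes, and that of polymerase I was -0.92 and -0.66. The short genes RPA14 (414 bp) and RPA12 (378 bp) lay under the running median of genes of their length.

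**Figure D3:**
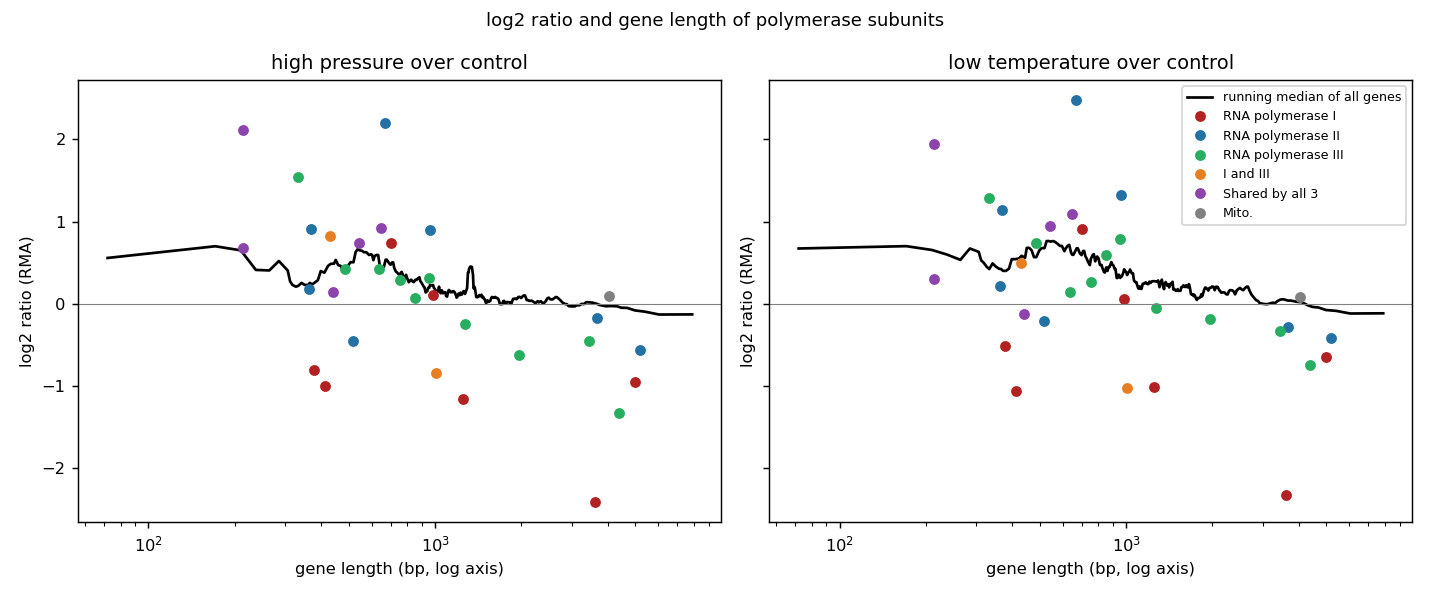
Log2 ratio over the control (vertical axis) against gene length in base pairs (horizontal log axis) for the 32 subunits, coloured by class, with the running median of all genes (line), for high pressure (left) and low temperature (right). The line is higher for short genes than for long ones, and RPA135 lies far under it at -2.41 and -2.33.

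The 4 genes higher past 1.5-fold under pressure under every scaling were RPB4, RPC11, RPB5 and RPB10, and the 4 lower ones were RPA190, RPA135, RPA49 and RPO31. In the cold RPB3, RPB4, RPB9, RPC11 and RPB10 were higher and RPA135 alone was lower under every scaling. With arrays centred, RPB5 under pressure (0.589) and RPB9 in the cold (0.592) were only just past the line. The share of all genes that stayed past it under every scaling was not counted, so these numbers have no background beside them.

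**Figure D4:**
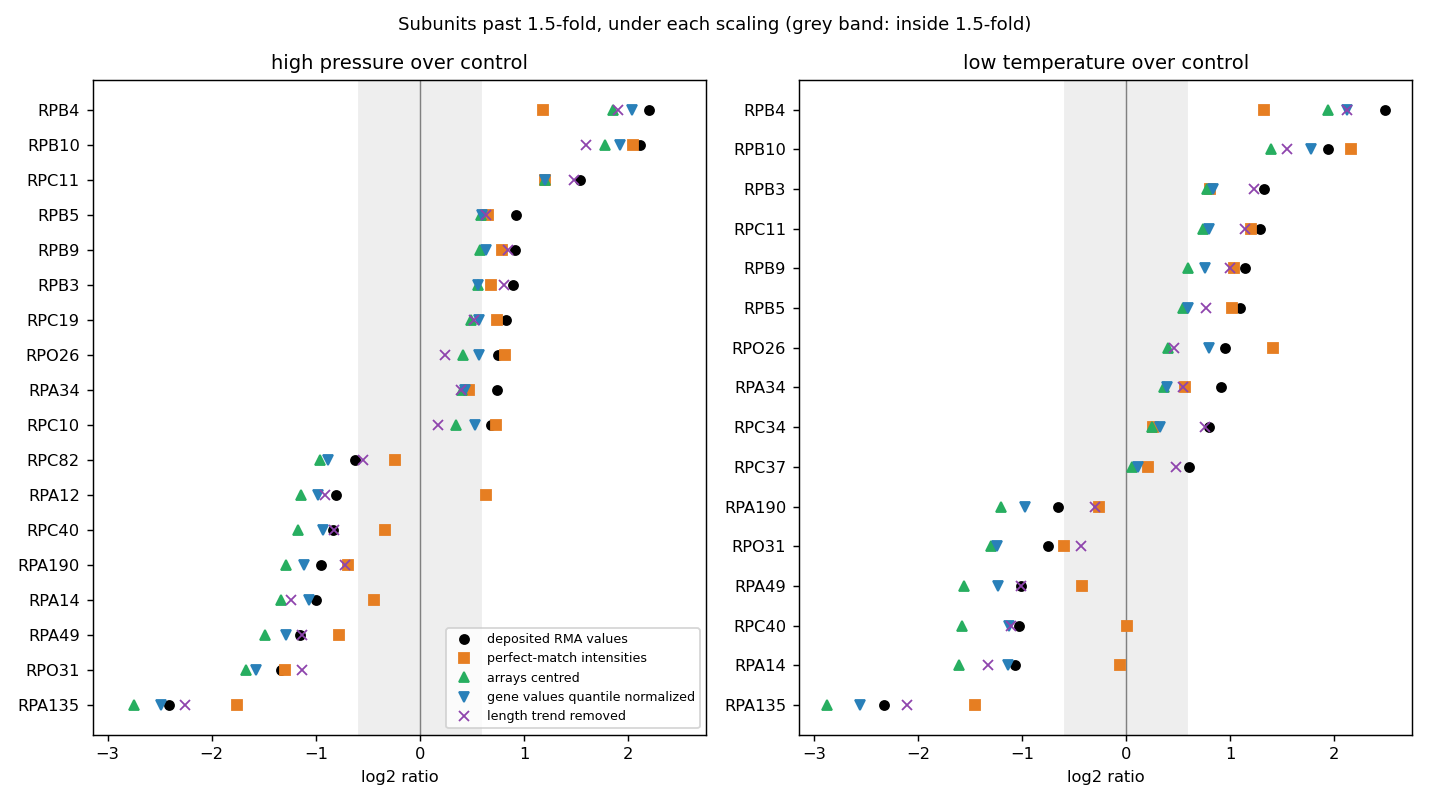
Log2 ratio over the control (horizontal axis) of each subunit counted past 1.5-fold (vertical axis), by the deposited RMA values and under 4 other scalings, for high pressure (left) and low temperature (right); the grey band is inside 1.5-fold. RPB10 and RPA135 lie outside the band with all symbols, and for RPA12 under pressure the perfect-match symbol lies at 0.64 while the others are below 0.

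High pressure was then set directly against low temperature. No subunit was past 1.5-fold: 0 of the 29 that passed the level filter were higher and 0 lower, where 4.28% and 10.1% of all genes were. The ratios, high pressure over low temperature, ran from -0.58 for RPO31, just inside the line, to 0.38 for RPC10, with a median of -0.14 beside -0.12 for all genes. RPA135 was at 7.76 under pressure and 7.84 in the cold, and RPB10 at 10.25 and 10.08. With perfect-match intensities RPB7, RPO31 and RPO26 were lower under pressure than in the cold, at -0.86, -0.71 and -0.59. They were 11.1% of the 27 that passed there, beside 16.9% of all genes, whose median was -0.23. With arrays centred RPC10 was higher at 0.60, which is 3.45% of the subunits that passed, beside 8.82% of all genes. Without replicates the error of an array is unknown, so neither a likeness nor a difference between these conditions could be tested.

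**Figure D5:**
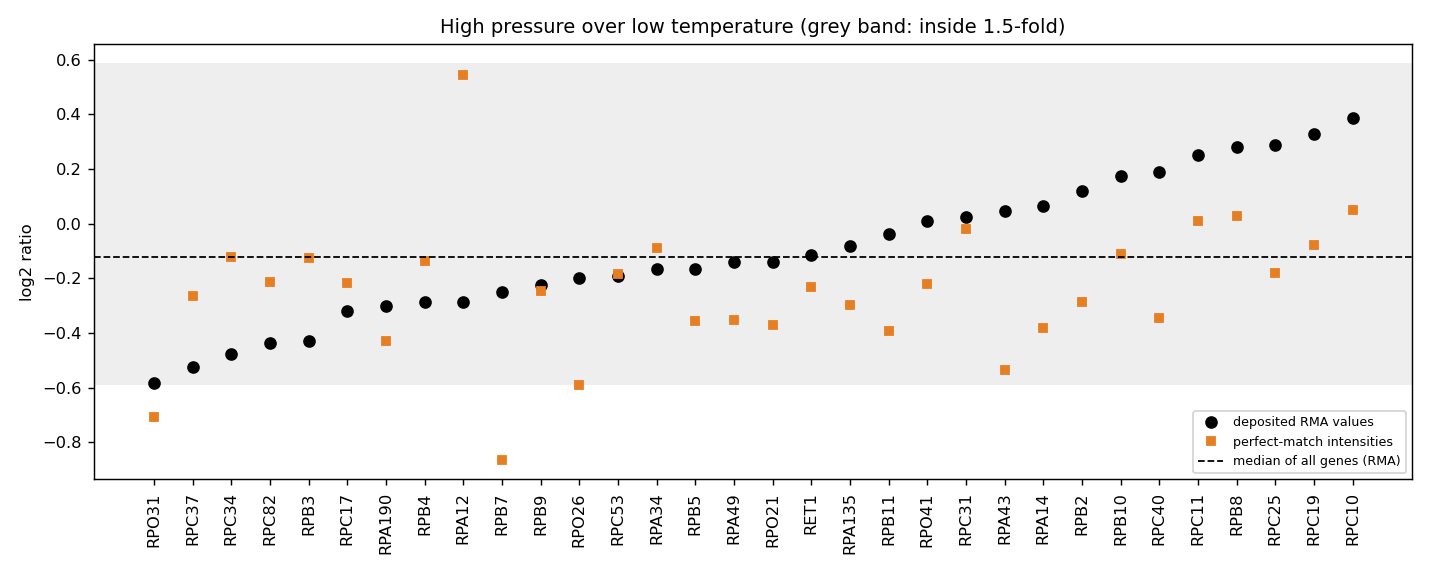
Log2 ratio of high pressure over low temperature (vertical axis) for each of the 32 subunits (horizontal axis, ordered by the ratio), by the deposited RMA values (circles) and by perfect-match intensities (squares); the dashed line is the median of all genes and the grey band is inside 1.5-fold. All circles lie within the band, from -0.58 to 0.38.

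The factors that work with these enzymes were read from other lists. The lists were dimmer than the subunits: the level filter left 8 of 9 polymerase I factors, but 4 of 10 polymerase III factors under pressure and 5 in the cold. General polymerase II factors, including TBP (SPT15), which serves all 3 enzymes, numbered 19, of which 15 passed. Of these 10 were higher and 0 lower under pressure, beside 28.1% of all genes higher, and 11 higher and 0 lower in the cold, beside 34.7%. TFA1 and CCL1, higher both times, passed the filter only through their high-pressure and low-temperature levels. Over all 19 the median was 0.75 under pressure and 0.86 in the cold, beside 0.13 and 0.26 for all genes. With arrays centred the medians were 0.42 and 0.32. TFG2, of TFIIF, lay at 7.00 under pressure, 6.93 in the cold and 5.43 in the control, with ratios of 1.58 and 1.50, or 0.87 and 0.92 with perfect-match intensities, and was not above mismatch in the control. TFB5, a small subunit of TFIIH, had a ratio of 1.49 under pressure (1.22 with perfect-match intensities), also with the control not above mismatch, and TFB4 of the same factor 1.44 in the cold (0.61 with perfect-match intensities). Of the 25 genes of Mediator, which links activators to polymerase II, 17 passed the filter. Of these 8 were higher under pressure and 10 in the cold, beside 28.1% and 34.7% of all genes, and 0 were lower. SRB6, SRB7 and MED11, higher both times, passed the filter only through their high-pressure and low-temperature levels. These shares thus rest in part on the filter. SRB6 had ratios of 2.22 and 1.99, and SRB7, not above mismatch in the control, 2.01 and 1.97. With perfect-match intensities they had 1.41 and 1.45, and 0.91 and 0.96. Their medians, 0.20 and 0.40, were -0.14 and -0.14 with arrays centred.

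Of the 8 polymerase I factors that passed, 1 was higher and 1 lower under pressure, beside 28.1% and 12.2% of all genes. In the cold 3 were higher and 0 lower, beside 34.7% and 9.6%. RRN10, higher both times, passed the filter only through its high-pressure and low-temperature levels and was above mismatch on no array. The medians over all 9 were -0.18 and 0.15. RRN7, of the core factor at the ribosomal DNA promoter, was lower under pressure by -0.68, with a level of 5.97 that was not above mismatch, against 6.64 in the control, and was inside 1.5-fold with perfect-match intensities (-0.42). HMO1, an HMG-box protein that binds ribosomal DNA, lay at 11.38 in the cold and 10.40 in the control (1.96-fold higher, but inside 1.5-fold at 0.43 with arrays centred), and at 10.56 under pressure, so that it was lower under pressure than in the cold by -0.82 (1.77-fold). RRN9, of the upstream activating factor, had a ratio of 0.81 in the cold, but 0.50 with perfect-match intensities and 0.26 with arrays centred, both inside 1.5-fold. Among polymerase III factors that passed, 1 of 4 was higher under pressure and 3 of 5 in the cold, beside 28.1% and 34.7% of all genes. In both comparisons 0 were lower. MAF1, higher both times, passed the filter only through its high-pressure and low-temperature levels. TFC1, higher in the cold, passed only through its low-temperature level. The shares of higher genes in this list thus rest in part on the filter. MAF1, the repressor of polymerase III in poor growth conditions, had a level of 6.27 under pressure, 6.64 in the cold and 5.18 in the control, where it was not above mismatch. Its ratios were 1.09 and 1.46, or 0.72 and 1.05 with perfect-match intensities, and TFC7, of TFIIIC, had 0.73 in the cold, but 0.18 with arrays centred.

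Of 11 elongation and tail-modifying enzymes of polymerase II, 8 passed, and of these 2 were higher under pressure and 3 in the cold, shares near those of all genes. SPT6, a histone chaperone of elongation, had ratios of 0.92 and 1.06, but 0.38 under pressure with perfect-match intensities, and 0.58 and 0.51 with arrays centred. Of 9 genes for polymerase assembly and import, 5 passed under pressure and 4 in the cold. Of these 1 was higher and 1 lower under pressure, beside 28.1% and 12.2% of all genes. In the cold 0 were higher and 1 lower, beside 34.7% and 9.6%. GPN2, a GTPase of this group, lay at 6.46 under pressure, 6.73 in the cold and 7.55 in the control, with ratios of -1.09 (2.13-fold lower) and -0.82 (1.76-fold lower), or -0.55 and -0.24, inside 1.5-fold, with perfect-match intensities. RBA50 had a ratio of 0.74 under pressure, but 0.45 with perfect-match intensities and 0.41 with arrays centred, both inside 1.5-fold. MTF1, the partner of RPO41 at mitochondrial promoters, lay at 5.53, 5.5 and 5.19 and was under the level filter. Set directly against each other, high pressure was lower than low temperature for 2 of 8 polymerase I factors that passed, 1 of 5 polymerase III factors, 1 of 15 general polymerase II factors and 2 of 17 Mediator genes, beside 10.1% of all genes. These were HMO1, RRN7 at -0.67, TFC1 at -0.71, TFB4 at -0.67, SRB2 at -0.87 and SOH1 at -0.80. RRN7 and TFC1, named after their values were seen, were above mismatch on neither array, and they and TFB4 were inside 1.5-fold both with perfect-match intensities and with arrays centred (-0.28 and -0.46 for TFB4).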

How the data were processed

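Log2 levels are RMA values with quantile normalization, made and deposited by the authors, per the labels; the RMA version, the background step and whether the arrays were normalized together are not given in the sources used here. Per the file headers, the deposited per-array tables hold mean perfect-match and mismatch intensities and a coefficient of variation, a ratio of standard deviation to mean, over 15 probe pairs of a gene. The 6337 rows were named through the RefSeq R64 gene table (1723 by locus tag, 3953 by symbol, 152 by synonym) and averaged on the log2 scale to 6265 genes. Above mismatch means a t value over 1.76 with 14 degrees of freedom for the mean pair difference. Log2 ratios are differences of levels between 2 arrays, and fold changes come from them. Length, known for 92.0% of genes and all 32 subunits, was removed as a running median over 201 genes. Every subunit was named. Of each list of factors, up to 2 genes a comparison were named: those largest in ratio, past 1.5-fold and above mismatch on an array. MTF1, alone in its list, and genes that passed the level filter through treated arrays alone were named too. The mating-type genes were read only for signal above mismatch. The members and lists were chosen with earlier results of these data known. The number of arrays, 3 in all, limits the precision. Promoter motifs were planned but not analysed here. Python 3.11.15, pandas 2.3.3, NumPy 2.4.6 and SciPy 1.17.1 were used.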

Additional observations from a re-analysis of the deposited data

How the results depend on the processing

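No paired analysis was possible because each condition has 1 array, and for the same reason no replicate could be left out. The deposited values put 10 subunits higher and 8 lower under pressure, around a median of 0.13 (log2 ratio). With perfect-match intensities 4 were lower. With arrays centred 4 were higher with a median of -0.21, and with quantile normalization of gene values 5 with a median of -0.096. Those 5 are 16.7%, beside 20.3% of all genes. With the length trend removed 6 (20.0%) were higher, beside 26.5%. Past 2-fold 3 (10.0%) were higher and 3 (10.0%) lower, beside 14.9% and 5.12%. Over genes above mismatch the median was 0.23. In the cold they put 10 higher and 6 lower, around a median of 0.11. Perfect-match intensities gave 2 lower and a median of 0.31, centring 5 higher, 14 lower and -0.43, and quantile normalization 11 lower and -0.20. Those 11 are 36.7%, beside 19.6% of all genes. Past 2-fold 6 (20.0%) were higher, beside 18.8%, and with the length trend removed the median was -0.043. For high pressure over low temperature, 0 were past the line with a median of -0.14. Perfect-match intensities gave 3 lower (11.1%, beside 16.9% of all genes), and the length trend removed 1 lower (3.45%, beside 10.2%). Centring gave 1 higher (3.45%, beside 8.82%) with a median of 0.070, and quantile normalization a median of 0.025. Perfect-match intensities reversed RPA12 under pressure (0.64). They moved RPC40 in the cold to 0.0071, which is under the median of 0.41 for all genes. The causes were not tested. Omitting the level filter kept every count within 1.5 times, and the medians do not use that filter. Every subunit has 1 row, so taking the brightest row of a gene could not change its ratio. Levels not above mismatch limit what can be said of RPA43, RPC53, RPC37 and RPO41.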
